A study of Cavia porcellus with 12 samples.

Results

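The small RNAs of 2 immune-regulated microRNA (miRNA) families, miR-146 and miR-155, were examined in guinea pig ventricular cardiomyocytes exposed to doxorubicin (DOX), an anthracycline chemotherapy drug with known cardiac toxicity. The members were the entries whose row name ended in 1 of 3 human precursors, hsa-mir-146a, hsa-mir-146b or hsa-mir-155, and each entry was 1 distinct read sequence assigned to a precursor. Of the 3 precursors 2 had rows, among 287 human precursors with entries in all, and there were 16 such entries among 5095 different rows. Of these, 9 belonged to hsa-mir-146a and 7 to hsa-mir-155, and hsa-mir-146b had 0 rows in the 3 tables analysed.

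Cells came from adult female Hartley guinea pigs by enzymatic perfusion of the heart and received either 10 µM DOX or the vehicle dimethyl sulfoxide (DMSO). RNA was taken after 1 h or 22 h, which gave 4 groups of 3 samples, 12 in all. The groups shared the isolation and the room-temperature incubation, so each is a short-term culture of isolated adult cells with no untreated heart beside it. The 3 tables set DOX 1 h beside DMSO 1 h, DOX 22 h beside DMSO 22 h, and DOX 22 h beside DOX 1 h.

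The miR-146 and miR-155 genes are known targets of NF-kB, the transcription factor that is switched on by Toll-like and cytokine receptors. miR-146a-5p lowers the adaptor proteins IRAK1 and TRAF6 and so acts as a brake on the pathway that induces it. miR-155-5p is processed from the BIC transcript, is best known from activated lymphocytes and macrophages, and targets negative regulators such as SOCS1 and SHIP1. miR-146b-5p shares its seed, the stretch near the 5′ end that pairs with targets, with miR-146a-5p and is made from a separate gene.

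The sequences below carry the comparison. Capitals mark the 17 bases that the listed sequences of each miRNA share, and lower case marks the ends by which they differ. For hsa-mir-146a the 6 entries that had a mean in every table were:

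hsa-mir-146a, leading sequence: AGAACTGAATTCCATGGgtt
hsa-mir-146a, 1 T longer: AGAACTGAATTCCATGGgttt
hsa-mir-146a, 1 G longer: AGAACTGAATTCCATGGgttg
hsa-mir-146a, 1 base shorter: AGAACTGAATTCCATGGgt
hsa-mir-146a, early start: gAGAACTGAATTCCATGGgt
hsa-mir-146a, shared bases alone: AGAACTGAATTCCATGG

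For hsa-mir-155 the 4 most abundant entries, which differ only in how far they run at the 3′ end, were:

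hsa-mir-155, leading sequence: AATGCTAATCGTGATAGgggt
hsa-mir-155, 19 bases: AATGCTAATCGTGATAGgg
hsa-mir-155, 18 bases: AATGCTAATCGTGATAGg
hsa-mir-155, 20 bases: AATGCTAATCGTGATAGggg

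All entries lay in a single arm of each hairpin. Those of hsa-mir-146a started at position 21 or 22 of the precursor and those of hsa-mir-155 at position 5, as the row names give it. These are the 5′ arms, and 0 rows fell in the 3′ arm of either precursor. The annotated human miR-146a-5p and miR-155-5p are known to begin a pair of bases upstream of the leading sequences, so the listed forms open inside the seed. The offset was not compared with that of other miRNAs in the series, so it cannot be read as a trait of miR-146a or miR-155. Its source was not tested. The reads had been matched to the human genome although the cells are from guinea pig. The third table also held rows named for mature miRNAs, and the 6 such rows of the 3 families were all listed at 0, as were all but 15 of the 2588 rows of that kind. None of the 16 sequences was listed under another human precursor (0 of 16).

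Each table gave 1 value per entry that could be used, the authors' mean of normalized counts over both groups, so the mean on its own does not tell DOX from DMSO. At 22 h and in the table of DOX 22 h with DOX 1 h, each mean could be written as whole reads from just 2 libraries, 1 on each side, and these reads were worked back. The 2 tables had 1 library in common. All 1085 entries solved at 22 h fitted the same library in the other table, where 14.3% would fit by chance. The names of the predicted miRNAs in these tables carry a single library pair each, with the replicate label C1, DOX 22 h with DMSO 22 h and DOX 22 h with DOX 1 h. By elimination the shared library is then DOX 22 h, the 22 h partner DMSO 22 h and the 1 h partner DOX 1 h. This rests on the names of tables and rows, and the libraries are therefore called shared library, 22 h partner and 1 h partner. The 1 h table did not resolve into 2 libraries, so it gave no comparison of DOX with DMSO at 1 h.

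The recovered reads summed to 139468 in the 22 h partner, 151706 in the shared library and 195697 in the 1 h partner. With 1 library on each side no difference has a replicate check and no p-value was computed. The intervals below are exact 95% intervals and cover counting error only. Ratios were scaled by the relative size factors of the libraries, the depth correction held in the authors' means. These were 0.889 for the 22 h partner and 1.29 for the 1 h partner with the shared library set to 1.

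miR-146a was a miRNA of middling abundance in these cells. Its arm summed to a mean of 1419 normalized counts at 1 h, 1043 at 22 h and 1041 in the table of DOX 22 h with DOX 1 h. It ranked 113 of 346 arms, 109 of 319 and 120 of 427, in that order. The tables were normalized separately, and as a part of each table's sum the arm took 242, 218 and 173 parts per 1000000 (ppm). miR-155 was scarcer, with means of 104.6, 68.2 and 97.5 normalized counts, ranks of 217, 218 and 220, and 17.8, 14.3 and 16.2 ppm. These values count the hsa-mir-155 name only. The same sequences also stood under a predicted miRNA, described further on, and with both names, a sum taken after the values had been seen, the means were 248.6, 140.2 and 211.0, the ranks 181, 188 and 181, and the levels 42.3, 29.3 and 35.1 ppm. The lowest listed mean was 10.0 at 1 h and at 22 h but 0.441 in the third table. The hsa-mir-155 sums therefore cover 4, 3 and 7 entries. On the entries with a mean at both 1 h and 22 h, they were 84.6, 68.2 and 67.0. The step from 68.2 to 97.5 thus lies in entries with no mean at 22 h. The sums with both names carry the same limit. The order of both members was the same in each table.

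**Figure D1:**
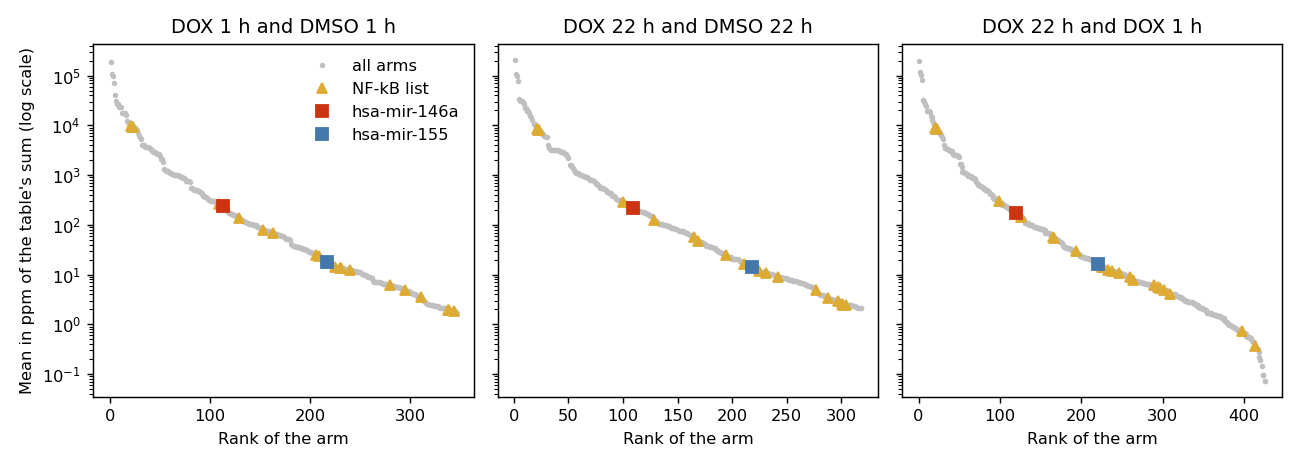
Level of every miRNA arm against its rank in the 3 tables, as the authors' mean in ppm of the table's sum on a log scale. hsa-mir-146a (red) ranks 113, 109 and 120 and hsa-mir-155 (blue) 217, 218 and 220. The other miRNAs linked to NF-kB or Toll-like receptor signalling (yellow) spread from the abundant to the least abundant arms.

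miR-146a was read more often than miR-155 in each library, and under the hsa-mir-155 name the factor differed by less than counting error. The 22 h partner had 1085 miR-146a and 70 miR-155 reads, a ratio of 15.5 (95% interval 12.2 to 20.0). The shared library had 992 and 66 reads, a ratio of 15.03 (11.7 to 19.6). The 1 h partner had 1074 and 67 reads, a ratio of 16.0 (12.5 to 20.8). The 3 intervals overlapped along most of their length. These sums hold the entries solved in all 3 libraries, so the low entries listed in 1 table only are not in them. From the means, which include those entries, the ratio was 13.6 at 1 h, 15.3 at 22 h and 10.7 in the table of DOX 22 h with DOX 1 h. That last table lists lower means than the others, which add more to miR-155 than to miR-146a. On the entries with a mean at both 1 h and 22 h, it held 1036 for miR-146a and 67.0 for miR-155, in place of 1041 and 97.5. With the predicted name counted as miR-155 the ratio fell to 7.81 (6.54 to 9.38) in the 22 h partner, 7.04 (5.89 to 8.45) in the shared library and 6.32 (5.37 to 7.47) in the 1 h partner. The 1 h partner then had the lowest ratio in place of the highest, and neighbouring intervals still overlapped.

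At 22 h the miR-146a arm was lower in the shared library than in its partner. The 992 reads of the shared library stood beside 1085 reads in the 22 h partner, or 1220 after scaling. The ratio was 0.813 (0.745 to 0.887), which counting error alone does not cover. The reads of every entry listed at 22 h could be solved for 228 arms, out of 319 to 427 ranked, each with at least 10 reads over both libraries. The most abundant arms, such as those of hsa-mir-1-2 and the second of hsa-mir-143, are not among them, and neither are arms too low to be listed at 22 h. The median ratio of the solved arms was 1.04, with quartiles at 0.813 and 1.27, and miR-146a stood at the 25.4 percentile. Intervals that lay wholly below 1, as that of miR-146a did, were found for 46 of these arms, and 55 lay wholly above. At least 2-fold differences were found for 25 of the 228 arms (11.0%), and miR-146a was not one of them.

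Between the shared library and the 1 h partner the difference ran the other way. The 1 h partner held 1074 reads, or 835 after scaling, against 992 in the shared library, and the ratio was 1.19 (1.09 to 1.30). The median ratio of the solved arms was 1.00, with quartiles at 0.847 and 1.27, and miR-146a stood at the 70.2 percentile. Intervals lay wholly above 1 for 51 of these arms, miR-146a among them, and wholly below for 42. Here 17 of 228 arms (7.46%) differed at least 2-fold, and miR-146a did not. Ordered by scaled reads, the 22 h partner was highest, the shared library followed and the 1 h partner was lowest, and neighbours in this order differed by more than counting error. Both ratios use the shared library, so they are not independent.

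For miR-155 the libraries were ordered the same way, but neighbours could not be separated. It had 70 reads in the 22 h partner, 66 in the shared library and 67 in the 1 h partner. The ratio of the shared library was 0.838 (0.590 to 1.19) to the 22 h partner and 1.27 (0.888 to 1.81) to the 1 h partner. Both intervals hold 1, and a difference inside them was not detectable at this depth. miR-155 stood at the 28.5 and 75 percentiles of the solved arms.

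**Figure D2:**
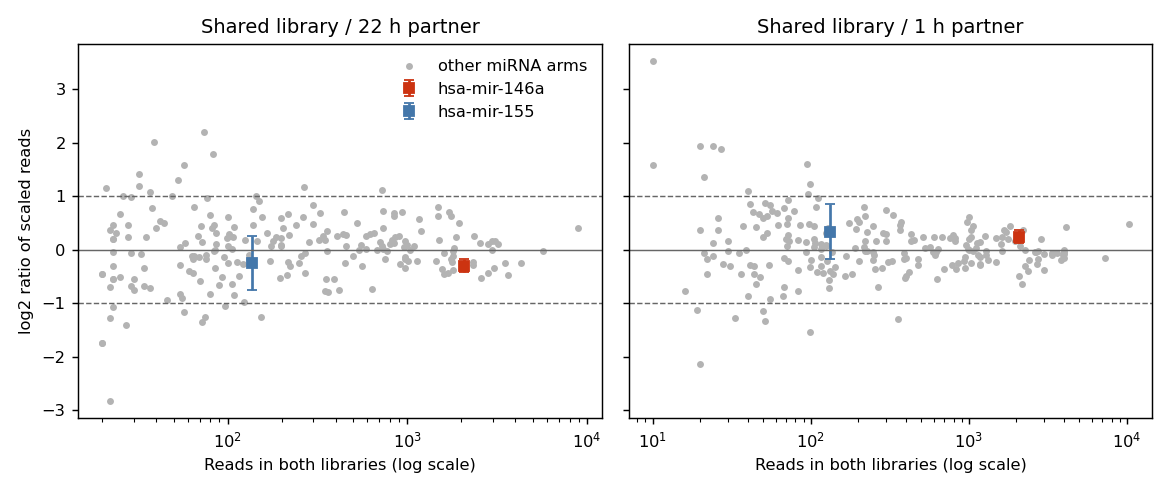
Log2 ratio of scaled reads against the reads in both libraries (log scale) for the 228 solved miRNA arms, in the shared library over the 22 h partner (left) and over the 1 h partner (right). Dashed lines mark a 2-fold difference and bars are exact 95% counting intervals. Both members lie below 0 on the left and above 0 on the right, inside the 2-fold lines, and the bars of hsa-mir-155 cross 0.

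The leading miR-146a sequence carried most of the arm. It had 657 reads in the 22 h partner, 553 in the shared library and 653 in the 1 h partner. Its ratio was 0.749 (0.667 to 0.839) at 22 h and 1.09 (0.970 to 1.22) in the shared library over the 1 h partner. It made up 60.6% of the arm's reads (57.6 to 63.5) in the 22 h partner, 55.7% (52.6 to 58.9) in the shared library and 60.8% (57.8 to 63.7) in the 1 h partner. Taken from the means, its share was 59.2% at 1 h, 58.4% at 22 h and 57.8% in the table of DOX 22 h with DOX 1 h. The share of the leading form therefore stayed within a few percent wherever it could be measured.

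The other isoforms of the arm (isomiRs, reads of 1 miRNA with different ends) did not all follow the leading sequence. The form with 1 T more had 260, 260 and 269 reads in the 22 h partner, the shared library and the 1 h partner. Its ratio was 0.889 (0.746 to 1.06) at 22 h. The form 1 base shorter had 91, 63 and 56 reads, with a ratio of 0.616 (0.439 to 0.858) at 22 h. The shorter form and the leading sequence were thus lower in the shared library beyond counting error, and for the form with 1 T more the interval held 1. Of the form with the shared bases alone there were 11, 14 and 13 reads, too few to rank the libraries.

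The early-start form, whose first base lies 1 position upstream of the others, set the 22 h partner apart. It had 8 reads there, 31 in the shared library and 40 in the 1 h partner. It made up 0.737% of the arm in the 22 h partner (0.319 to 1.45), against 3.13% (2.13 to 4.41) in the shared library and 3.72% (2.67 to 5.04) in the 1 h partner. The interval of the 22 h partner does not overlap those of the other libraries. The shared library held 3.45 times the scaled reads of the 22 h partner (1.55 to 8.68), and 0.996 times those of the 1 h partner (0.603 to 1.63). Summed with the low early-start form of the table of DOX 22 h with DOX 1 h, the share was 3.68% by the means there, and it was 2.42% at 1 h and 1.81% at 22 h.

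The 2 forms of 21 bases differ only in their last base, T or G. The T form had 4.48 times the reads of the G form (3.36 to 6.07) in the 22 h partner, 3.66 times (2.81 to 4.83) in the shared library and 6.26 times (4.52 to 8.85) in the 1 h partner. The T form was more abundant in each of the 3 libraries, and the intervals of neighbouring ratios overlapped. The G form itself had 58, 71 and 43 reads in the same order. Its ratio was 1.09 (0.759 to 1.57) at 22 h and 2.12 (1.43 to 3.18) in the shared library over the 1 h partner.

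Of the 9 entries with reads in all 3 libraries, 6 of hsa-mir-146a and 3 of hsa-mir-155, 1 was at least 2-fold different in each comparison. At 22 h it was the early-start form, while 12.8% of the 1082 entries tested were past the same limit, 7.49% higher and 5.27% lower. In the shared library over the 1 h partner it was the form ending in G, while 8.88% of 1081 entries were, 6.48% higher and 2.41% lower. With 1 of 9 on each occasion, the members were past the limit about as often as entries at large.

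**Figure D3:**
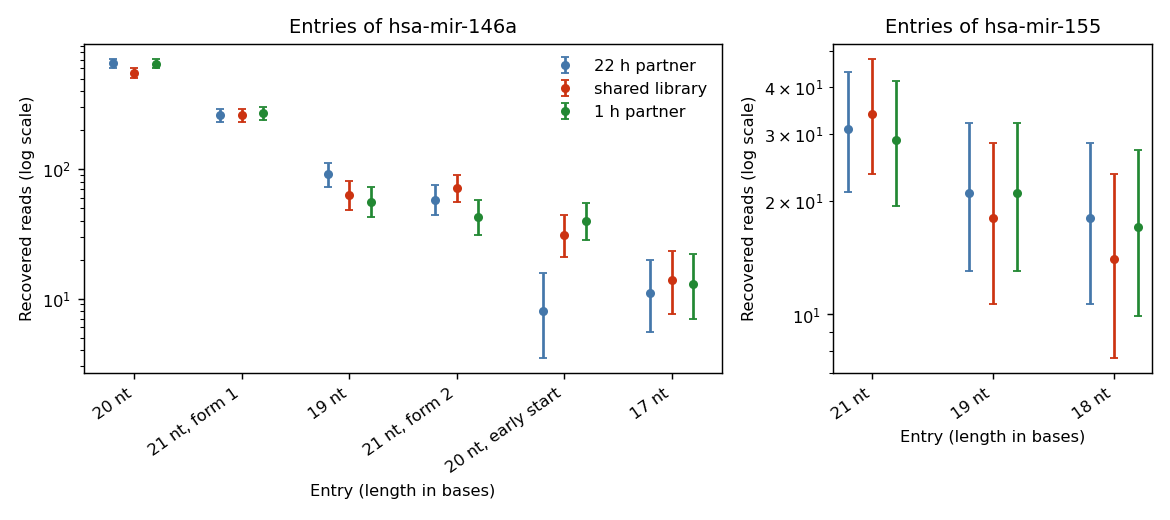
Recovered reads of the 9 solved entries in the 3 libraries on a log scale, for hsa-mir-146a (left) and hsa-mir-155 (right), labelled by length, with forms 1 and 2 of 21 bases ending in T and G. Points are reads before scaling for depth and bars are exact 95% Poisson intervals. The early-start form has 8 reads in the 22 h partner against 31 and 40 in the other libraries, while the libraries overlap for each hsa-mir-155 entry.

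The leading miR-155 sequence, of 21 bases, had 31 reads in the 22 h partner, 34 in the shared library and 29 in the 1 h partner. Its ratio was 0.975 (0.582 to 1.64) and 1.51 (0.891 to 2.56), in the order 22 h partner and 1 h partner. The form of 19 bases had 21, 18 and 21 reads and the form of 18 bases 18, 14 and 17. The leading form made up 44.3% of the arm's reads (32.4 to 56.7) in the 22 h partner, 51.5% (38.9 to 64.0) in the shared library and 43.3% (31.2 to 56.0) in the 1 h partner. The 3 intervals overlap, and no isoform of miR-155 set a library apart. The form of 20 bases was listed with a mean of 19.9 at 1 h and 10.3 in the table of DOX 22 h with DOX 1 h, and it had no mean at 22 h, where the lowest listed mean was 10.0. A further 3 forms were listed in the table of DOX 22 h with DOX 1 h alone, with means from 4.79 to 8.38. For miR-146a the 3 forms found there alone had means from 1.01 to 3.09.

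**Figure D4:**
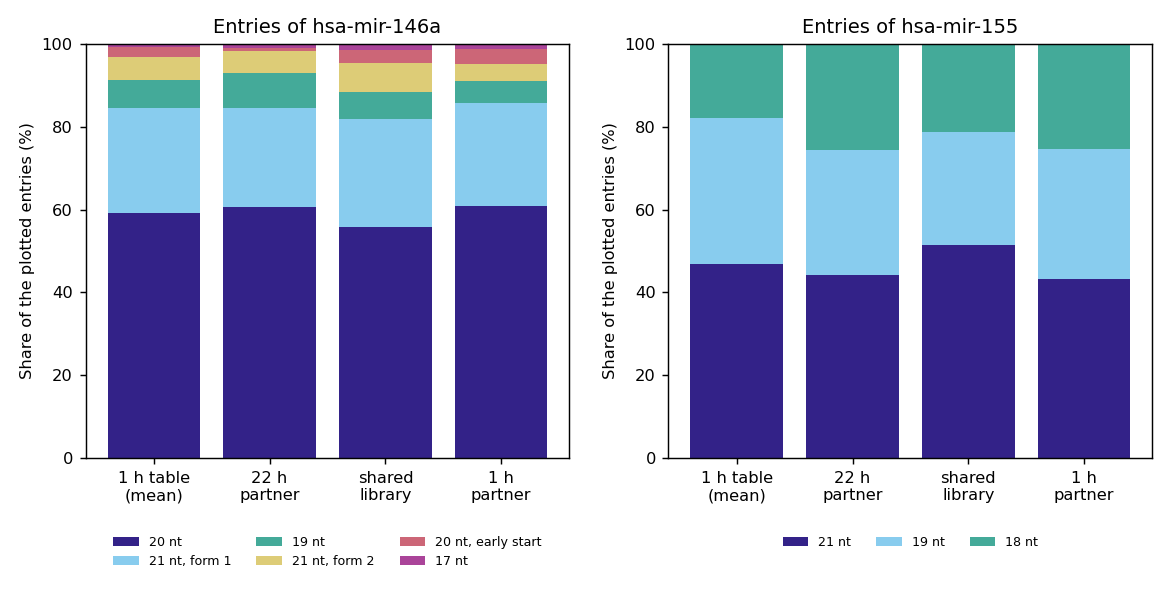
Share of each solved entry among the solved entries of its arm, in percent, from the means of the 1 h table and from the reads of the 3 libraries. Form 1 of 21 bases ends in T and form 2 in G. The leading form of hsa-mir-146a takes between 55.7% and 60.8% in the libraries, and the early-start form is thinnest in the 22 h partner at 0.737%.

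Part of the miR-155 signal stood under another name. The same sequences were listed a second time under a miRNA predicted from these reads, which is not counted among the members and was noticed after the values had been seen. In the 22 h partner the predicted name held 69 reads of such sequences and hsa-mir-155 held 70. In the shared library the numbers were 75 and 66, and in the 1 h partner 103 and 67. The predicted name thus took 49.6% (41.1 to 58.2), 53.2% (44.6 to 61.6) and 60.6% (52.8 to 68.0) of the sum. By the means its share was 57.9% at 1 h, 51.3% at 22 h and 53.8% in the table of DOX 22 h with DOX 1 h.

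The split differed between forms. The form of 19 bases had 27 reads in the 22 h partner, 37 in the shared library and 50 in the 1 h partner under the predicted name, against 21, 18 and 21 under hsa-mir-155. The form of 18 bases had 19, 15 and 28 reads under the predicted name. The form of 20 bases had 23, 23 and 25. The leading form of 21 bases was listed under hsa-mir-155 alone. A further row for the predicted miRNA itself listed no sequence and held 75, 63 and 75 reads, which were left out of these sums. With the reads of both names added, the ratio of the shared library was 0.902 (0.709 to 1.15) to the 22 h partner and 1.07 (0.847 to 1.34) to the 1 h partner. Both intervals again hold 1.

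**Figure D5:**
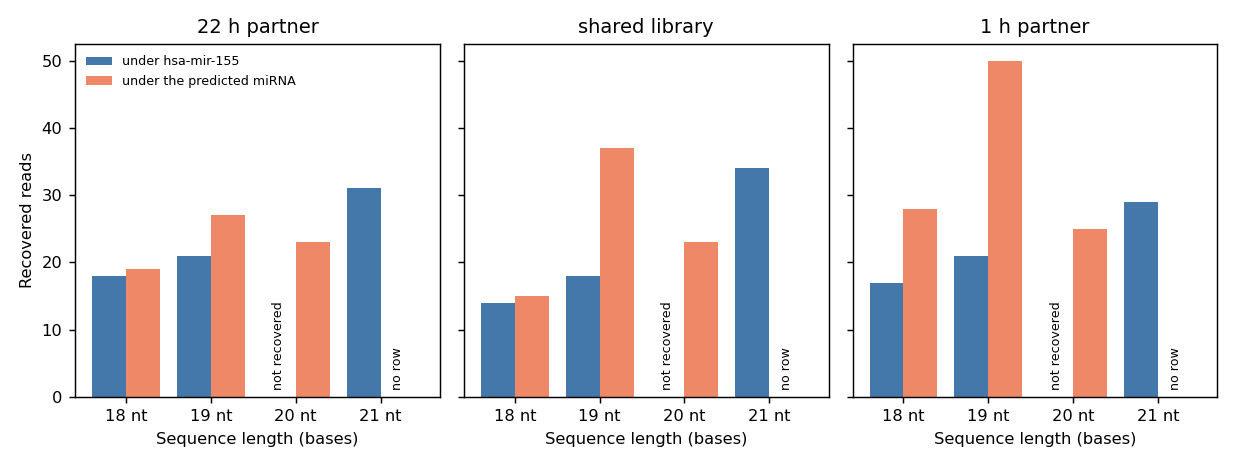
Recovered reads of the miR-155 sequences by length under hsa-mir-155 (blue) and under the predicted miRNA (orange) in the 3 libraries. The form of 19 bases has more reads under the predicted name in each library, up to 50 against 21 in the 1 h partner, the form of 20 bases was not recovered under hsa-mir-155, and the form of 21 bases had no row under the predicted name.

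Other miRNAs linked to NF-kB or Toll-like receptor signalling, not all of them induced by it, were read beside the members. Of 14 precursors on this list 13 were listed (hsa-mir-147a was not), and the reads of 15 of their 22 arms could be solved in all 3 libraries. The other 7 have no ratio here, among them the most abundant of the list, the first arms of hsa-mir-21 and of both hsa-mir-125b precursors, so the counts and medians leave those out. At 22 h 0 of 15 arms were at least 2-fold higher in the shared library and 1 was lower, where 6.14% and 4.82% of the solved arms were. In the shared library over the 1 h partner the counts were 0 and 0, where 4.39% and 3.07% of the solved arms were. The median ratio of the list was 0.995 and 0.918, in the same order, beside 1.04 and 1.00 for the solved arms. The arm that was lower was the first arm of hsa-mir-212, which shares its cluster with hsa-mir-132, with 104, 49 and 83 reads in the 22 h partner, the shared library and the 1 h partner and a ratio of 0.419 (0.292 to 0.594) at 22 h.

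At 22 h, 55 of all 228 solved arms lay above 1 beyond counting error and 46 below. In the shared library over the 1 h partner, 51 lay above and 42 below. On the list, 2 of the 15 arms lay above 1 and 2 below at 22 h. In the other comparison 0 lay above and 1 below. Each is a smaller part than over all solved arms, but the comparison is limited. The 15 arms include those of hsa-mir-9-1, hsa-mir-9-2 and hsa-mir-9-3, precursors of the same miRNA, so they are not 15 separate miRNAs. Arms with few reads, such as the second of hsa-mir-9-2 (10, 14 and 16), have wide intervals that seldom clear 1. The 2 of the list above 1 at 22 h were the second arm of hsa-mir-125b-1 and the first arm of hsa-mir-187. The former had 489, 697 and 915 reads and a ratio of 1.27 (1.13 to 1.43). The latter had 94, 145 and 152 reads and a ratio of 1.37 (1.05 to 1.80). The 2 below were hsa-mir-212 and hsa-mir-10a. The first arm of hsa-mir-132 had 231, 220 and 413 reads. Its ratio was 0.847 (0.701 to 1.02) at 22 h and 0.685 (0.579 to 0.809) in the shared library over the 1 h partner. The second arm of hsa-mir-132 had 253, 283 and 359 reads, with ratios of 0.995 (0.837 to 1.18) and 1.01 (0.864 to 1.19). The second arm of hsa-mir-187, which is induced by interleukin-10, had 1269, 1538 and 2071 reads, with ratios of 1.08 (1.00 to 1.16) and 0.955 (0.893 to 1.02). The first arm of hsa-mir-10a, known from endothelium as a restraint on NF-kB, had 29, 17 and 22 reads and a ratio of 0.521 (0.269 to 0.981) at 22 h.

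miR-155 and miR-146a are abundant in leukocytes, and markers of blood cells were present in the libraries. The 5 blood cell precursors chosen for this check (hsa-mir-142, hsa-mir-144, hsa-mir-150, hsa-mir-223, which is also on the NF-kB list, and hsa-mir-451a) were all listed, and their 6 solved arms summed to 401 reads in the 22 h partner, 428 in the shared library and 493 in the 1 h partner. Scaled, the shared library held 0.949 of the 22 h partner and 1.12 of the 1 h partner. The levels were summed over all 7 arms of these precursors, solved or not. They were 167 ppm at 1 h, 86.8 at 22 h and 98.0 in the table of DOX 22 h with DOX 1 h. Of these sums hsa-mir-451a alone took 73.9, 20.7 and 24.2 ppm, in that order. At 22 h, 0 of the 6 solved arms differed at least 2-fold. In the shared library over the 1 h partner 1 was higher and 1 lower. The first arm of hsa-mir-142, a leukocyte miRNA, had 220, 169 and 130 reads, and the second 48, 102 and 117. In scaled reads its first arm followed the order of miR-146a across the libraries and the second did not. Neither did the solved arms of hsa-mir-144, hsa-mir-150, hsa-mir-223 and hsa-mir-451a. The part of blood cells in the miR-146a and miR-155 levels was not tested.

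Muscle miRNAs, the markers of the labelled cell type, were abundant. The 7 precursors of the muscle miRNAs miR-1, miR-133a, miR-208 and miR-499a were all listed and took 334999 ppm at 1 h, 351500 at 22 h and 370543 in the table of DOX 22 h with DOX 1 h. The endothelial hsa-mir-126 took 44078, 38272 and 32359 ppm, and the smooth muscle and fibroblast precursors 196250, 211650 and 200175. Most of the latter was the second arm of hsa-mir-143, with 189676, 206346 and 194568 ppm. miRNAs known from other cells of the ventricle were therefore present too. In bulk RNA fewer cells of a type and less miRNA per cell cannot be told apart.

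Among the 204 arms with at least 50 reads, miR-155, counted under its own name, had the profile over the 3 libraries that lay closest to that of miR-146a. The distance between their centred log2 values was 0.066, where the median arm lay at 0.548. With the predicted name added the distance was 0.215, and 13 other arms lay closer to miR-146a. The first arm of hsa-mir-7-2 (52, 49 and 55 reads) and the first arm of hsa-mir-504 (732, 709 and 781 reads) followed at 0.067 and 0.080. For miR-155 the closest arm was the second of hsa-mir-208a, from an intron of the cardiac myosin gene MYH6, at 0.060, with 2202, 2097 and 2014 reads. miR-146a was next at 0.066 and the second arm of hsa-let-7i at 0.113. These distances rest on 3 libraries and, for miR-155, on 66 to 70 reads in each, and are given as a description.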

How the data were processed

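Small RNA libraries (TruSeq small RNA kit) were processed by the authors with the BaseSpace Small RNA application, with reads matched to human hg19 miRNAs although the cells are from guinea pig. FastQC and MultiQC are named in the submitters' processing notes. Trimming and the aligner's version are not given in the sources used here. The tables were made by the authors with DESeq2. The single column used, deposited by the authors as a signal that is not raw counts, is their mean of size-factor normalized counts over both groups. The log2 fold changes, errors, p-values and per-group values are the authors' own comparison and were not used. In the 1 h and 22 h tables this mean had lost its decimal mark. The power of 10 was restored from the same row of the third table, with the lowest mean at 10 (15 means at 1 h were raised by this floor). There were 0 columns of further samples.

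Reads per library (up to 1000 per entry) were solved from the whole-number structure of the means with Python 3.11.15, numpy 2.4.6, pandas 2.3.3 and scipy 1.17.1, and 1085 entries were solved. The method was tested on simulated reads with the scale factors already found. The simulated entries had lower means than the leading miR-146a sequence, so the test does not cover that entry. The sums of solved reads are not the library depths. Arms were entries whose starts lay within 15 bases. Arm ratios needed 10 reads over both libraries, and 2-fold was the limit for calls. Intervals were exact (Clopper-Pearson or Poisson, 95%), and reads carry no molecular identifiers. Named were all entries of the 3 members and, for likeness, the 3 arms with the smallest Euclidean distance of centred log2 scaled reads (0.5 added) over arms with at least 50 reads. The members and lists were chosen with earlier results of these data known. The groups of the 12 samples came from the labels. Alternatives were the leading entry alone, added reads, other scaling, a higher mean, a smaller read limit, sequences unique to a precursor, other fold and read limits, and the predicted name added to hsa-mir-155, the last chosen after seeing the data.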

Additional observations from a re-analysis of the deposited data

Results flagged for a closer look

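miR-155 sequences appeared in rows outside the comparison of the 3 precursors. Under a predicted miRNA they had 69 reads in the 22 h partner, 75 in the shared library and 103 in the 1 h partner, above the limit of 3 reads that a count of 0 allows. Under hsa-mir-155 the same libraries held 70, 66 and 67 reads.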

How the results depend on the processing

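Of the recomputed values 47 kept their direction and stayed within the counting interval or the 1.5-fold limit, 12 moved and 0 reversed. With reads solved only up to 300 per library, which leaves out the leading miR-146a sequence, the miR-146a ratio was 0.912 at 22 h and 1.34 in the shared library over the 1 h partner. With a 1.5-fold limit 66 arms at 22 h and 48 in the other comparison were past it, with a 3-fold limit 7 and 7, and among arms with at least 50 reads 12 and 7. Adding the predicted name to miR-155, chosen after seeing the data, changed the direction of neither library ratio of miR-155, but it lowered the ratio of miR-146a to miR-155 to 7.81 in the 22 h partner, 7.04 in the shared library and 6.32 in the 1 h partner and raised the distance between their profiles from 0.066 to 0.215. No paired analysis was possible because the tables hold 1 mean over all libraries and the recovered libraries carry 1 replicate label, so no replicate could be left out either. Depth limits the miR-155 isoforms, each with 34 reads or fewer per library under hsa-mir-155.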
